A study of Mus musculus with 12 samples.

Results

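Enrichment of transcripts by the m6A reader Ythdf1 was compared between mouse retina and mouse cortex. For each gene the log2 ratio of Ythdf1 immunoprecipitate (IP) to input in the retina was set against the same ratio in the cortex, and the difference, retina minus cortex, is the quantity described here. A gene was kept when it had at least 20 counts in each of 3 inputs, namely both retina inputs and replicate 2 of the cortex input. Of the 52550 genes in the count table, 10956 met this rule, and all 10956 were among the 20278 genes that passed the filter on low counts and were tested. The tested tissue was retina at postnatal day 0 and its comparator was cortex at embryonic day 12.5, both from wild-type C57BL/6 mice. In each tissue there were 2 libraries of a Ythdf1 IP, 2 of a Ythdf2 IP and 2 of input RNA prepared with no antibody. No mutation or treatment was carried by any group, and no IP with an unrelated antibody was used here. Tissue and age differ together between the 2 sides and cannot be told apart. No label says that replicates came from separate animals, so p-values measure only the spread between these libraries, which may be technical.

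N6-methyladenosine (m6A) is the most common internal base modification of eukaryotic mRNA and is laid down by a METTL3-METTL14 complex, mostly in a GGAC-like context and often near the stop codon. YTHDF1 is a cytoplasmic protein that binds m6A through its YTH domain, and it is best known for raising the translation of the mRNAs it binds; in the mouse nervous system it has been linked to axon guidance and to neuronal outgrowth. In RNA immunoprecipitation sequencing (RIP-seq) the RNA held by the protein is recovered with an antibody and sequenced beside the input. A ratio of IP to input reports relative abundance within each library, not the number of molecules bound. In bulk tissue, fewer cells of a type and less RNA per cell cannot be told apart.

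The 5 letters GGACT, the form of the m6A context searched here, were looked up in transcript sequences to show what the genes with the strongest differences carry. The windows below come from the longest protein-coding transcript of each gene in the GENCODE M21 annotation of GRCm38, 5′ to 3′ on the transcript strand, with 8 bases on each side of the site nearest the coding end and GGACT in capitals. The first 6 belong to genes with higher Ythdf1 enrichment in the retina, and the last 4 to nuclear genes with lower enrichment there.
Prdm13: ccttccagGGACTgagcaggg
Ngfr: agagccatGGACTccacactg
Cog7: actcaagaGGACTctgcatta
Tbx3: gtggctgtGGACTcggggtcg
Tril: gtgtccgcGGACTtctcaggc
Tmem132d: aggggtctGGACTttgaggag
Nnat: ccagcagcGGACTccgagacc
Tmsb10: cactaatcGGACTgccaaatt
Atp5l: gtgtaacaGGACTgctatctg
Igf2: ggtgcctaGGACTgcggcggg

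The Prdm13 site begins 16 bases past the last coding base in the 3′ UTR (gene at chr4:21677480-21685963, minus strand), and the Ngfr site 367 bases past it (chr11:95568818-95587735, minus strand). The sites of Cog7 (chr7:121879363-121981711), Tbx3 (chr5:119670669-119684724), Tril (chr6:53815468-53820830) and Tmem132d (chr5:127781630-128433077) lie in coding sequence. Among the genes with lower enrichment, the sites of Tmsb10 (chr6:72957347-72958748), Atp5l (chr9:44912557-44920742) and Igf2 (chr7:142650766-142666816) lie in the 3′ UTR, and that of Nnat (chr2:157560078-157562522) in the 5′ UTR. Of the 40 higher nuclear protein-coding genes named by the rule given with the processing, 39 hold at least 1 GGACT, with a median of 7 per transcript and a median transcript of 4648 bases. Of the 19 lower ones named by that rule, 11 hold at least 1, with a median of 1 and a median transcript of 908 bases. The longest transcripts of Hist1h4f, Hist1h4j and Rplp1, all among the strongest falls, hold none. A match is a description of letters, not a mapped m6A site, and the section on transcript length gives the share of all kept genes that hold it.

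Library totals ran from 19530226 to 40515980 counts. Much of each library came from ribosomal RNA repeat genes: 87.8% and 87.8% in the retina Ythdf1 IPs and 55.5% and 55.0% in the retina inputs, 75.4% and 82.7% in the cortex Ythdf1 IPs and 40.3% in cortex input 2. Protein-coding genes held 9.65% and 9.47% of counts in the retina Ythdf1 IPs, 10.4% and 11.5% in the retina inputs, 17.4% and 10.4% in the cortex Ythdf1 IPs and 41.1% in cortex input 2. The tissue labels matched defining markers. Six6, of the developing eye, had 487 to 875 counts in the retina Ythdf1 IPs and inputs and 0 to 18 in the cortex Ythdf1 IPs and cortex input 2, while Emx1, of the dorsal forebrain, had 0 counts in those retina libraries and 99 to 365 in those cortex ones. The library labelled cortex input replicate 1 stood apart and was left out of the reported fit. It held 71.0% mitochondrial ribosomal RNA and 4.65% protein-coding counts, with 8967 counts of Camk2a, a kinase of mature forebrain neurons, against 237 in replicate 2, and 145 counts of Nes, of neural progenitors, against 19126. The cortex side of every ratio therefore rests on 1 input library, which the model assumes to vary like the other groups.

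Ythdf1 enrichment differed between the tissues for 650 of the 10956 genes at an adjusted p under 0.05 (edgeR quasi-likelihood test). It was higher in the retina for 205 genes and lower for 445. Over all 20278 genes tested, 3.52% were called, 1.11% higher and 2.41% lower. The lower set held 12 of the 13 mRNAs of the mitochondrial genome, 45 of 79 mRNAs of cytosolic ribosomal proteins, 40 of 60 replication histone genes and 26 of 76 nuclear genes of oxidative phosphorylation. In the higher set 201 of the 205 genes were protein-coding, and its median transcript was 4358 bases against 3486 over all 10956 genes. All 650 differences were at least 1 in size on the log2 scale, and in each of them both retina IP-to-input values lay on 1 side of both cortex values. That separation was also common among genes that were not called, since it held upward for 4605 and downward for 3782 of the 10956. The median difference over the 10956 genes was 0.11 on the log2 scale, with a quartile range of −0.84 to 0.85, against a median of −0.03 over all genes tested.

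**Figure D1:**
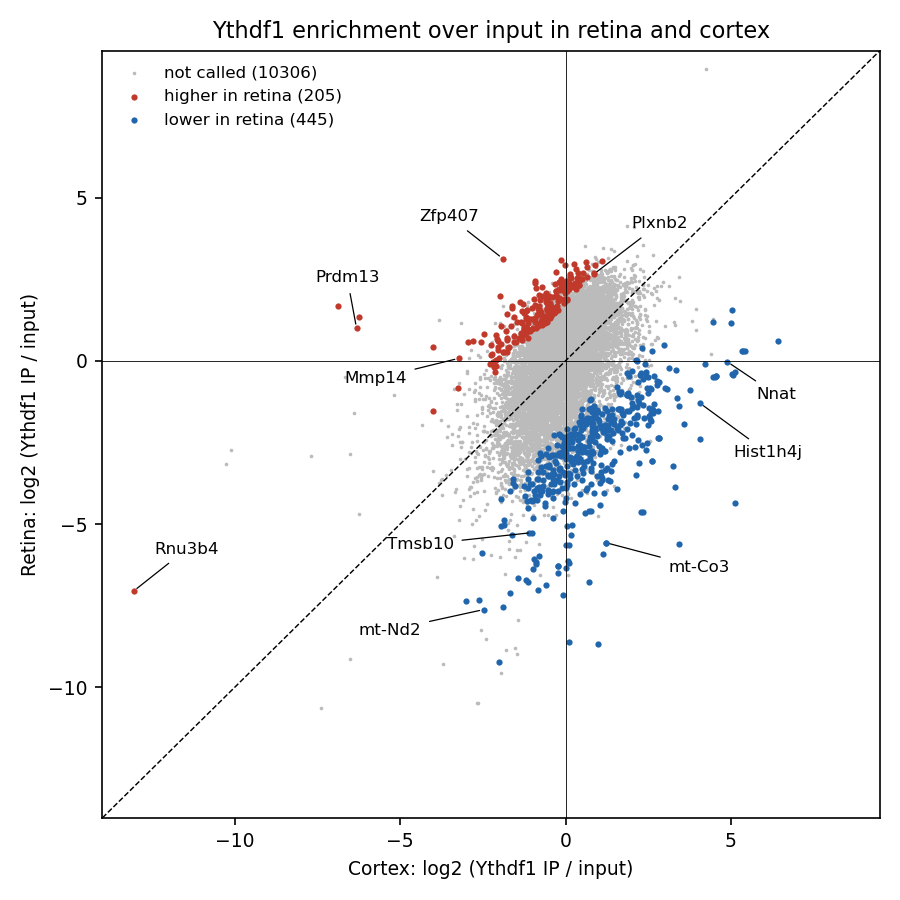
Log2 ratio of Ythdf1 IP to input in the retina (vertical) and in the cortex (horizontal), 1 point per gene for 10956 genes, with the dashed line marking equal enrichment. The 205 genes called higher in the retina lie above the line and the 445 called lower lie below it, and Prdm13 and Rnu3b4 sit far to the left because both cortex IPs had 0 counts.

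The calls depend on which libraries enter. With both cortex inputs in the fit, edgeR called 0 genes in either direction, while 2101 of the 10956 passed an unadjusted p under 0.05, and with replicate 1 in place of replicate 2 the counts were 1168 higher and 3005 lower. Leaving out retina Ythdf1 IP 1 gave 19 higher and 149 lower, leaving out retina Ythdf1 IP 2 gave 16 and 138, and leaving out cortex Ythdf1 IP 2 gave 23 and 142. Without retina input 1 there were 690 higher and 830 lower, and without retina input 2 there were 733 and 649. Leaving out either retina Ythdf2 IP gave 65 higher each time, with 316 and 312 lower. Scaling by library totals in place of TMM (trimmed mean of M values) moved the median of the 10956 genes to 1.5 and turned the split to 1700 higher and 92 lower, and a limma fit on log2(FPKM + 1), with a median of 0.92, gave 2713 and 140. Differences below are on the TMM scale.

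Enrichment spread more widely in the retina. The quartile range of the log2 ratio spanned 2.03 in the retina and 1.23 in the cortex. The retina Ythdf1 IP was called above its input (edgeR, adjusted p under 0.05) for 2353 of the 10956 genes and below it for 2411. Over all genes tested, 13.7% and 13.4% were called in these directions. In the cortex the counts were 261 above and 421 below, where 1.55% and 2.17% were called, with 1 input library behind them. Across the 10956 genes the retina and cortex ratios had a Spearman rho of 0.470, a description over genes that share libraries.

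Of the 205 genes with higher enrichment in the retina, 154 were enriched over input in the retina, 0 were enriched in the cortex by the same edgeR test, and 43 were depleted in the cortex. The most common pattern, in 149 genes, was enrichment in the retina with no call in the cortex. Of the 445 with lower enrichment, 388 were depleted in the retina and 82 were enriched in the cortex, with 36 genes showing both. The median log2 ratio was 1.59 in the retina and −0.69 in the cortex for the higher set. It was −2.63 in the retina and 0.72 in the cortex for the lower set. The same tissue difference for the Ythdf2 IPs, which uses the same inputs, had medians of 1.29 and −1.99 in these 2 sets. For Ythdf1 they were 2.25 and −3.32.

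Each difference can be written as an IP side (retina Ythdf1 IP against cortex Ythdf1 IP) minus an input side (retina input against cortex input). In the higher set the median IP side was 0.84 and the median input side −1.43. The IP side was called upward in 95 of the 205, the input side was called downward in 123, and both held in 13. In the lower set the median IP side was −1.28 and the median input side 2.09, with the IP side called downward in 246 of the 445, the input side called upward in 318, and both in 123. Over all genes tested, 13.1% were called up and 15.2% down on the IP side, and 19.9% on the input side, 8.82% up and 11.1% down. The input side was the larger of the 2 in 123 higher and 303 lower genes.

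**Figure D2:**
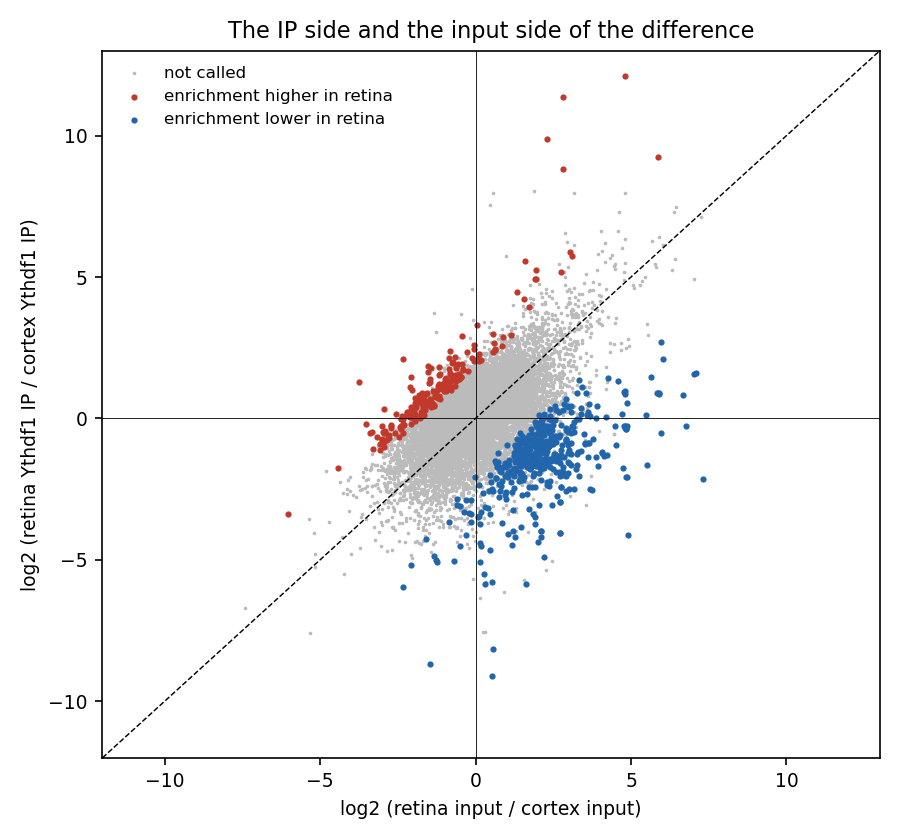
The 2 sides of the difference for 10956 genes: log2 ratio of retina to cortex in the Ythdf1 IPs (vertical) and in the inputs (horizontal), with the dashed line marking equal change in both. Genes called higher lie mostly left of 0 on the input axis, with a median of −1.43, and genes called lower lie mostly right of 0, with a median of 2.09.

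The 12 largest rises were taken from protein-coding or long noncoding genes with a mean of at least 5 normalised CPM (counts scaled to a common library size by TMM). They were Prdm13, Zfp407, Ngfr, Cog7, Tbx3, Tril, Tmem132d, Mmp14, Lifr, Apba2, Egflam and Edem3. Zfp407, a zinc finger protein, had 11.9 and 12.9 CPM in the retina Ythdf1 IPs against 1.46 and 1.36 CPM in the retina inputs, and 5.92 and 4.17 CPM in the cortex Ythdf1 IPs against 18.9 CPM in the cortex input. It was high in the IP of one tissue and in the input of the other, with no overlap, and its difference was 5.03 ± 0.55 (SE, log2, adjusted p = 0.000374). Cog7, a subunit of the Golgi tethering complex COG, had 5.44 and 7.12 CPM in the retina IPs against 5.44 and 2.88 CPM in the retina inputs, and 2.40 and 2.15 CPM in the cortex IPs against 17.6 CPM in the cortex input. The retina IPs were at or above the inputs, both cortex IPs were far below theirs, and the difference was 3.54 ± 0.61 (SE, adjusted p = 0.00588). Mmp14, a membrane-bound metalloproteinase that cuts matrix proteins, had 11.1 and 11.6 CPM in the retina IPs, within the 13.5 and 8.09 CPM of the retina inputs, and 15.2 and 11.1 CPM in the cortex IPs against 123 CPM in the cortex input. Its 4 IP values lay close together and the single cortex input stood alone, with a difference of 3.30 ± 0.53 (SE, adjusted p = 0.00374). Apba2, an adaptor of the amyloid precursor protein, had 58.8 and 72.6 CPM in the retina IPs against 30.7 and 18.3 CPM in the retina inputs, and 20.7 and 17.8 CPM in the cortex IPs against 66.2 CPM in the cortex input (difference 3.21 ± 0.53, SE, adjusted p = 0.00441). The IPs were the higher libraries in the retina and the lower ones in the cortex. Edem3, which helps clear misfolded glycoproteins from the endoplasmic reticulum, was arranged in the same way. It had 11.5 and 10.3 CPM in the retina IPs against 1.54 and 5.0 CPM in the retina inputs. In the cortex it had 7.20 and 3.68 CPM in the IPs against 13.4 CPM in the input. The tissue difference of the Ythdf2 IPs over the same inputs was 4.60 for Cog7, 2.62 for Mmp14 and 2.10 for Apba2. It was 1.37 for Edem3 and 0.20 for Zfp407.

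Receptors for growth factors and cytokines were among these rises. Ngfr, the p75 neurotrophin receptor, had 64.1 and 66.6 CPM in the retina IPs against 24.9 and 8.25 CPM in the retina inputs, and 1.65 and 1.04 CPM in the cortex IPs against 5.51 CPM in the cortex input. The retina inputs differed widely from each other, yet the IP values stood above both, and the difference was 3.97 ± 0.90 (SE, adjusted p = 0.0293). Lifr, the receptor for leukaemia inhibitory factor, had 15.6 and 17.1 CPM in the retina IPs against 3.07 and 7.52 CPM in the retina inputs, and 1.65 and 1.66 CPM in the cortex IPs against 5.09 CPM in the cortex input, with a difference of 3.25 ± 0.77 (SE, adjusted p = 0.0309). Tril, a membrane protein of Toll-like receptor signalling, had 49.4 and 47.2 CPM in the retina IPs against 10.6 and 7.84 CPM in the retina inputs, and 8.57 and 4.23 CPM in the cortex IPs against 12.3 CPM in the cortex input, a difference of 3.32 ± 0.66 (SE, adjusted p = 0.0123). In all 3 genes the retina IPs lay above their inputs and the cortex IPs below theirs.

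Some of the largest rises rest on few cortex counts. Prdm13, a transcription factor of amacrine cell specification in the retina, had 15.6 and 14.7 CPM in the retina IPs against 8.90 and 6.20 CPM in the retina inputs, and 0 counts in both cortex IPs against 21 counts, or 0.268 CPM, in the cortex input. With 3 counts in each library taken as the lowest detectable level, the cortex IP was at least 2.00-fold lower than its input and the difference between the tissues at least 4.01-fold. The fitted 7.32 depends on the prior count and is no bound. Tbx3, a T-box transcription factor active in the dorsal retina, had 35.1 and 37.9 CPM in the retina IPs against 26.4 and 21.3 CPM in the retina inputs, with 3 and 0 counts in the cortex IPs against 32 counts in the cortex input. Its cortex IP-to-input ratio was 0.141, with an exact 95% interval of 0.0276 to 0.450 that covers counting error only. Egflam, or pikachurin, a matrix protein of the photoreceptor synapse, had 17.9 and 19.8 CPM in the retina IPs against 4.14 and 3.92 CPM in the retina inputs, and 1.34 and 0.184 CPM in the cortex IPs against 1.58 CPM in the cortex input, so that its 2 cortex IPs differed widely.

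**Figure D3:**
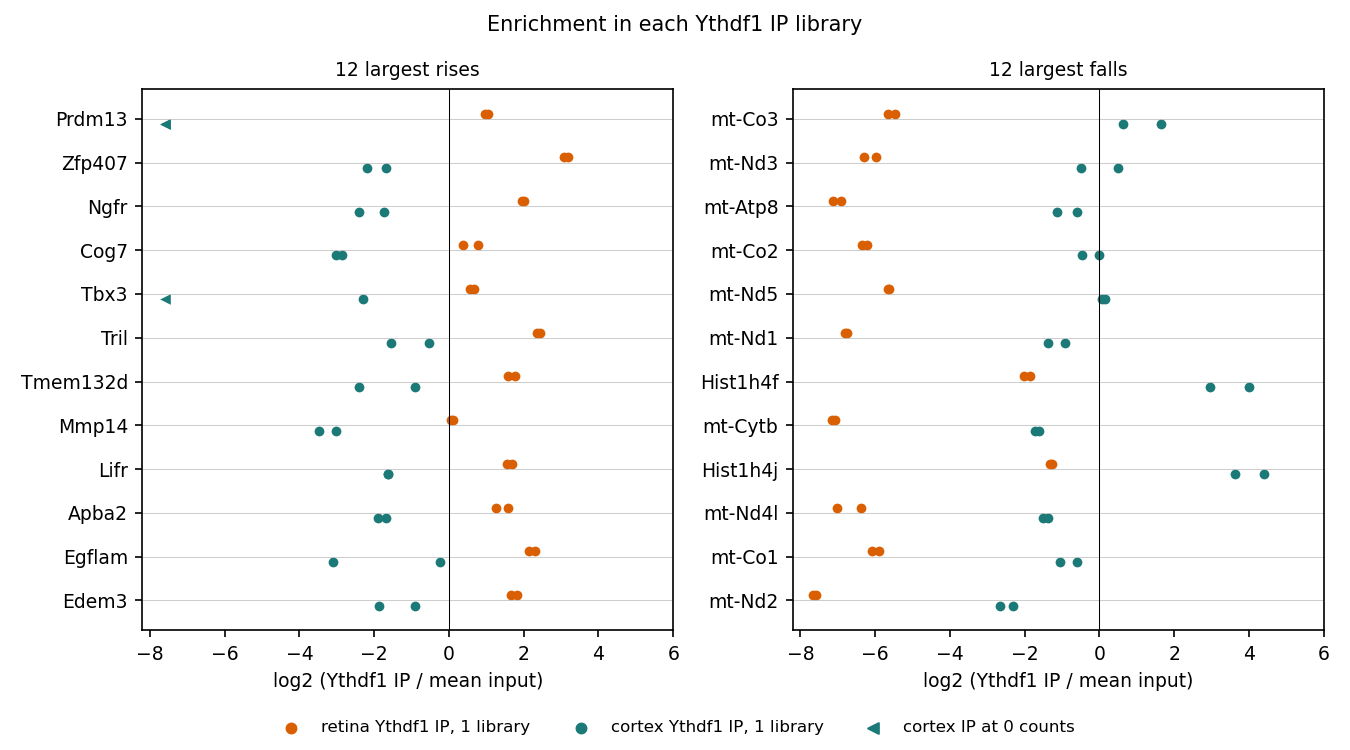
Log2 ratio of each Ythdf1 IP library to the mean input of its tissue, for the 12 largest rises (left) and the 12 largest falls (right), with retina libraries above cortex libraries in each row. Both sets were taken from protein-coding or long noncoding genes. The retina values lie right of the cortex values in the left panel and left of them in the right panel for every gene, and triangles mark cortex IPs with 0 counts.

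Matrix and adhesion genes were mostly above the median gene. Of 13 laminins, integrins and tenascins, a list added after the values were seen, 4 rose and none fell, with a median difference of 1.33 against 0.11 over the 10956 genes. Itgb5, an integrin subunit that pairs with alpha V, had 49.9 and 47.7 CPM in the retina IPs against 9.14 and 5.72 CPM in the retina inputs, and 1.56 and 1.6 CPM in the cortex IPs against 1.92 CPM in the cortex input. Only the retina IPs stood clear of their inputs, and the difference was 2.99 ± 0.52 (SE, adjusted p = 0.00576). Tnc, the matrix glycoprotein tenascin C, showed the same arrangement, with 16 and 15.9 CPM in the retina IPs against 2.28 and 1.84 CPM in the retina inputs, and 5.44 and 3.62 CPM in the cortex IPs on either side of the 4.66 CPM of the cortex input (difference 2.98, adjusted p = 0.0224). The laminin chains Lamb1 and Lamc1 rose by 2.67 and 2.09. Of 45 protocadherins, cadherins and neuronal adhesion genes 2 rose, Nrcam and Pcdh18, none fell, 35 were above 0 and the median was 0.85. Over all 10956 genes 1.87% were called higher and 5864 were above 0. The matrix and adhesion lists had median transcripts of 5784 and 5671 bases, and genes in the longest of 5 length bins had a median difference of 0.45. Leaving out 1 library gave 1 to 6 rises in the matrix list and 0 to 7 in the adhesion list, with 1 matrix rise without either retina Ythdf1 IP or without cortex Ythdf1 IP 2.

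Guidance and signalling lists had medians above that of all 10956 genes in the reported fit, and few calls. Their median transcript lengths ran from 3581 bases (Notch) to 7675 (Slit, Robo, netrin and DCC), against 3486 over all 10956 genes. By length, the median difference of all genes was 0.29 at 2980 to 4022 bases, 0.44 at 4022 to 5492 and 0.45 from 5494. The list medians included 0.54 for Slit, Robo, netrin and DCC, 0.48 for insulin, Akt and mTOR and 0.28 for Wnt. The part of length was not tested. With cortex input replicate 1 in place of replicate 2, where the median of all 10956 genes was −0.81, the medians were −1.17 for Wnt genes, −1.04 for ephrins and Eph receptors and −0.83 for hedgehog, BMP, FGF and retinoid signalling, which puts these 3 below it. The Wnt median was also below that of all genes with both cortex inputs (by 0.064) and without cortex Ythdf1 IP 2 (by 0.005). Among 24 plexins, semaphorins and neuropilins, 20 differences were above 0 with a median of 0.66, and the semaphorin receptor Plxnb2 alone was called. Plxnb2 had 187 and 175 CPM in the retina IPs against 31.1 and 26.2 CPM in the retina inputs, and 91.7 and 71.5 CPM in the cortex IPs against 45.1 CPM in the cortex input. It was above input in both tissues, by 2.66 in the retina and 0.85 in the cortex on the log2 scale, and its difference of 1.80 ± 0.48 (SE) was just inside the threshold at an adjusted p of 0.0495. Of 28 genes of hedgehog, BMP, FGF and retinoid signalling 1 rose, Smo, the transducer of hedgehog signals, at 2.74, and 23 were above 0. Of 30 insulin, Akt and mTOR genes 2 rose, the insulin receptor Insr at 2.28 and Igf2r, which clears IGF2 from the cell surface and overlaps the antisense gene Airn, at 2.39. Ntn4, a laminin-like netrin, rose by 2.46 as 1 call among 16 Slit, Robo, netrin and DCC genes. None of 16 ephrins and Eph receptors, 40 Wnt genes and 31 Notch genes was called by edgeR, with 4, 13 and 4 at an unadjusted p under 0.05. Over all 10956 genes 3052 passed that unadjusted threshold, 5864 were above 0 and 1.87% were called higher.

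Genes of the endomembrane system, cilia and protein synthesis made up other rises, in lists added after the values were seen. For comparison, 1.87% of all 10956 genes were called higher and 5864 were above 0. Of 35 vesicle tethering subunits 6 rose (Cog7, Cog4, Exoc3, Trappc12, Vps33a and Vipas39), 1 fell (Trappc1, at −2.37), and the median was 0.89. Exoc3, of the exocyst, had 21.8 and 27.1 CPM in the retina IPs against 6.38 and 6.40 CPM in the retina inputs, and 14.2 and 12.2 CPM in the cortex IPs against 19 CPM in the cortex input, a difference of 2.46 ± 0.45 (SE, adjusted p = 0.00784). Its log2 ratio of IP to input was 1.93 ± 0.30 in the retina and −0.52 ± 0.34 in the cortex (SE). The retina side was the larger, and the cortex side rests on 1 input library. Of 21 genes of intraflagellar transport, which carries cargo along cilia, 5 rose, including Ift172 at 2.38 and Ttc30b at 3.39. Ttc30b had 23 counts in each retina input. Ttc30a1 was also among the 5, and whether it shares reads with Ttc30b was not tested. Of 20 cytosolic aminoacyl-tRNA synthetases 3 rose (Mars, Aars and Iars), 19 were above 0 and the median was 1.08, while with cortex input replicate 1 in place of replicate 2 this median became −0.91. The importin Ipo5 and the exportin Xpo5 rose by 2.45 and 2.30 among 22 such genes. Leaving out 1 library gave 1 to 9 rises among tethering subunits, 0 to 8 in intraflagellar transport, 0 to 6 among synthetases and 0 to 7 among importins and exportins, with at most 2 in any of these lists without either retina Ythdf1 IP or without cortex Ythdf1 IP 2.

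Some machines held both rises and falls. Of 42 spliceosome genes 3 rose, the large scaffold protein gene Prpf8 at 2.40 with Prpf6 and Prpf4, and 6 fell, the Sm and LSm genes Snrpd2, Snrpe, Snrpg, Lsm5 and Lsm8 with Sf3a2. Prpf8 had 191 and 186 CPM in the retina IPs against 49.3 and 32.2 CPM in the retina inputs, and 120 and 114 CPM in the cortex IPs against 133 CPM in the cortex input. Snrpg, by contrast, had 3.56 and 3.24 CPM in the retina IPs against 19.8 and 21.5 CPM in the retina inputs, and 7.82 and 12.3 CPM in the cortex IPs against 4.95 CPM in the cortex input. The 2 genes were thus on opposite sides of their input in the retina. In oxidative phosphorylation the 1 rise among 76 nuclear genes was Sdha, the flavoprotein subunit of succinate dehydrogenase, at 2.52, beside 26 falls. The proteasome list had 2 rises, Psmd1 and Psmd2, both of the base of the regulatory particle, and no fall among 34 genes. Eif3c rose and Eif5a fell among 34 translation factors. Of all 10956 genes 1.87% were called higher and 4.06% lower, so 1 or 2 calls among 34 genes do not set a list apart. With library totals or limma on FPKM the medians of the spliceosome, proteasome and translation factor lists, below 0 here, are above 0.

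The lowest value, called or not, was −9.66 over all 10956 genes and −9.03 among small nucleolar RNAs. Among protein-coding or long noncoding genes, most of the 12 largest falls named came from the mitochondrial genome. All 13 of its mRNAs had a difference below 0, from −7.63 to −4.69, and 12 were called; the exception, mt-Atp6, had the lowest value with an SE of 2.42 (adjusted p = 0.145). mt-Co3, a subunit of cytochrome c oxidase, had 43.8 and 38.6 CPM in the retina Ythdf1 IPs against 1986 and 1932 CPM in the retina inputs, and 454 and 928 CPM in the cortex Ythdf1 IPs against 296 CPM in the cortex input. The retina IPs were the lowest and the retina inputs the highest of these values, and the difference was −6.79 ± 0.85 (SE, adjusted p = 0.00104). mt-Nd5, of complex I, had 31.0 and 30.5 CPM in the retina IPs against 1058 and 2046 CPM in the retina inputs, and 1427 and 1360 CPM in the cortex IPs against 1294 CPM in the cortex input, so the retina IPs alone stood apart (difference −5.76 ± 0.95, SE, adjusted p = 0.00441). mt-Nd2 was depleted in both tissues, with 11.4 and 12.2 CPM in the retina IPs against 2051 and 2583 CPM in the retina inputs, and 176 and 226 CPM in the cortex IPs against 1116 CPM in the cortex input (difference −5.15 ± 0.73, SE, adjusted p = 0.00169). The mitochondrial ribosomal RNAs moved beside them. They took 0.377% and 0.408% of counts in the retina IPs against 17.3% and 16.7% in the retina inputs, and 2.11% and 2.34% in the cortex IPs against 12.7% in the cortex input, and their part in the result was not tested.

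Replication histone genes, whose short mRNAs carry no poly(A) tail and are made while DNA is copied, fell in 40 of 60 cases, with a median difference of −3.14. The list was added after the values were seen. Hist1h4f had 25.3 and 22.6 CPM in the retina IPs against 91.1 and 91.5 CPM in the retina inputs, and 88.9 and 184 CPM in the cortex IPs against 11.4 CPM in the cortex input. It was below input in the retina by 1.93 and above input in the cortex by 3.58 on the log2 scale, a difference of −5.51 ± 0.68 (SE, adjusted p = 0.00104). The family as a whole held 21130 and 21587 ppm (CPM with protein-coding counts alone as the total) in the retina IPs against 52190 and 37767 in the retina inputs, and 35792 and 72078 in the cortex IPs against 14154 in the cortex input. Both cortex IPs lay above the cortex input and both retina IPs below the retina inputs. Near-identical histone genes share reads, so the value of any one of them is uncertain. Of 44 cell-cycle genes, Mcm3 and Mcm6, of the replicative helicase, rose, Ube2c fell, and the median was −0.04 in the reported fit. Over 19 alternative fits that median ran from −6.19 to 1.41. With cortex input replicate 1 in place of replicate 2, Mcm3 and Mcm6 were at −3.04 and −3.65.

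Small nuclear RNAs (snRNAs), the RNA core of the spliceosome, fell in 29 of 37 cases with a median of −4.94, in a list also added after the values were seen. The U1 gene Rnu1b1, whose counts are nearly those of its copy Rnu1b2 so that its value is uncertain, had 6.57 and 8.15 CPM in the retina IPs against 67.8 and 54.9 CPM in the retina inputs, and 46.2 and 68.4 CPM in the cortex IPs against 9.33 CPM in the cortex input. Retina IPs and the cortex input were low, retina inputs and cortex IPs high, and the difference was −5.68 ± 0.57 (SE, adjusted p = 0.000229). Its list had a median IP side of −0.27 and a median input side of 4.72. Together with the 7SK and 7SL RNAs, snRNAs took 0.838% and 0.806% of counts in the retina IPs against 13.3% and 12.9% in the retina inputs, and 2.78% and 2.46% in the cortex IPs against 2.37% in the cortex input. Small nucleolar RNAs gave 11 falls and 1 rise among 42, with Snord118 (U8) at −5.60 and Snord15b at −5.35. Snord15b lies inside the ribosomal protein gene Rps3.

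Messenger RNAs of the cytosolic ribosome fell in 45 of 79 cases, 77 of the 79 were below 0, and the median was −2.52. Over all 10956 genes 4.06% were called lower and 5092 were below 0. The median log2 ratio of these ribosomal mRNAs to input was −2.49 in the retina and 0.02 in the cortex. Rplp1, an acidic protein of the ribosomal stalk, had 17.5 and 12.4 CPM in the retina IPs against 84.9 and 94.5 CPM in the retina inputs, and 37.2 and 57.0 CPM in the cortex IPs against 9.41 CPM in the cortex input. The IP was below input in the retina and above it in the cortex with no overlap, and the difference was −4.90 ± 0.62 (SE, adjusted p = 0.00116). Summed over the list, ribosomal protein mRNAs held 14890 and 13990 ppm in the retina IPs against 71454 and 53513 in the retina inputs, and 17626 and 30101 in the cortex IPs against 26164 in the cortex input. Processed pseudogenes, many of which copy such mRNAs and can take their reads, gave 48 falls and 1 rise among 301, with a median of −1.68 that is above 0 with limma on FPKM.

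Nuclear genes of oxidative phosphorylation fell in 26 of 76 cases with a median of −1.87. Atp5l, of the ATP synthase, had 4.41 and 3.32 CPM in the retina IPs against 36.6 and 38.2 CPM in the retina inputs, and 6.59 and 12.3 CPM in the cortex IPs against 5.51 CPM in the cortex input, a difference of −4.04 ± 0.61 (SE, adjusted p = 0.00262). The retina inputs alone were high. Mitochondrial ribosomal proteins, also encoded in the nucleus, gave 3 falls (Mrpl42, Mrps21 and Mrpl20) among 76, with a median of −0.26. That is near the 4.06% called lower among all 10956 genes. Medians of the mitochondrial mRNAs, histones, snRNAs, ribosomal proteins and oxidative phosphorylation genes stayed below 0 in each of 19 alternative fits, though for the last the highest was −0.05. The number of falls changed more. Leaving out 1 library gave 9 to 12 falls among the mitochondrial mRNAs, 18 to 49 among the histones, 20 to 33 among the snRNAs, 14 to 55 among the ribosomal proteins and 3 to 35 among the oxidative phosphorylation genes. The low ends came without a retina Ythdf1 IP or without cortex Ythdf1 IP 2. With library totals in place of TMM the falls were 12 of the mitochondrial mRNAs, 10 of the histones, 17 of the snRNAs, 6 of the ribosomal proteins and 2 of the oxidative phosphorylation genes, where 3 rose. With limma on FPKM they were 12, 15, 23, 12 and 4 in the same order, with 9 rises in oxidative phosphorylation. The 7 libraries of the contrast alone gave 7 falls in oxidative phosphorylation, and with both cortex inputs every one of these 5 lists had 0.

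**Figure D4:**
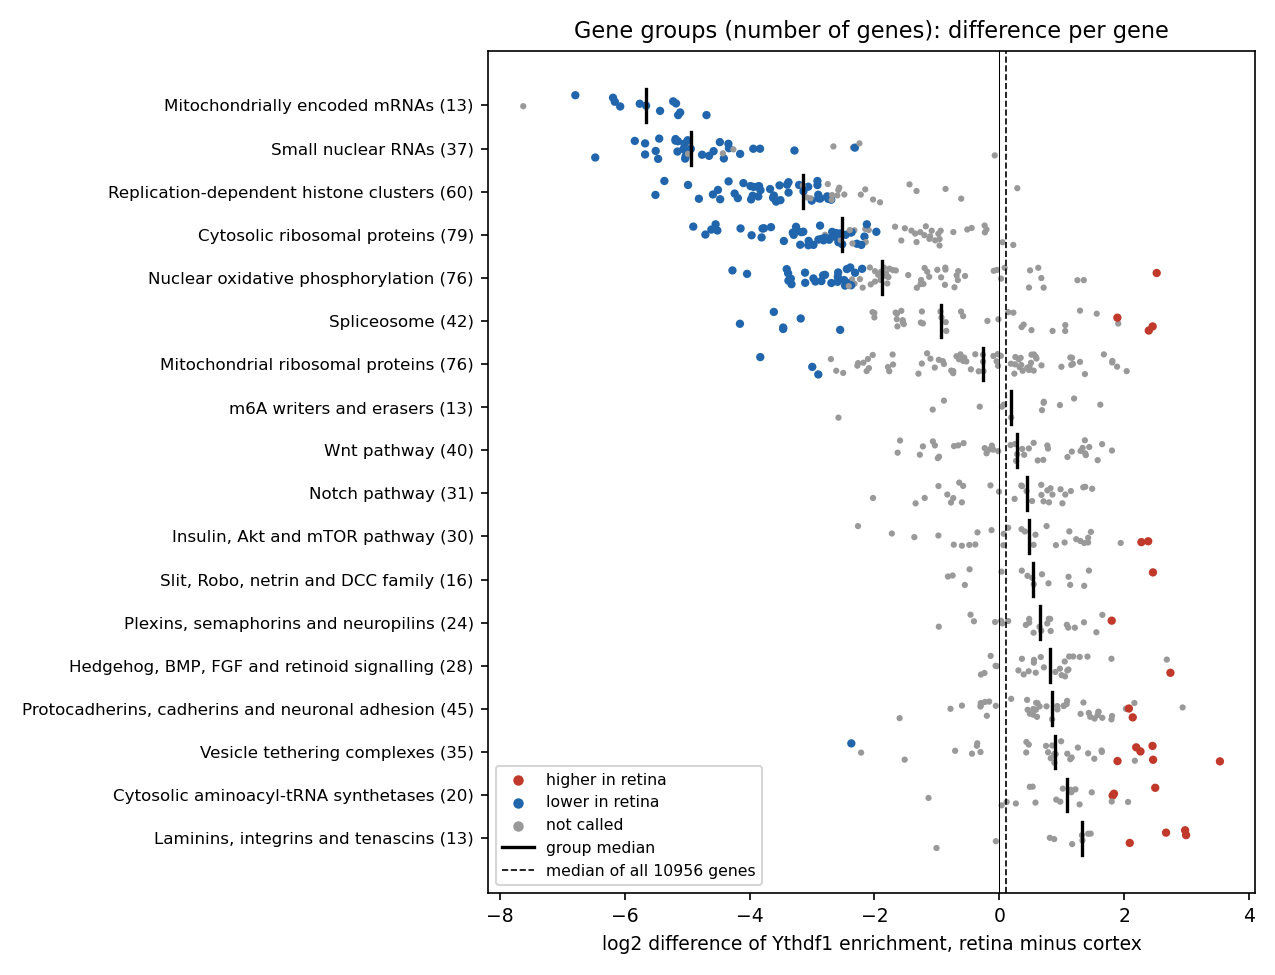
Difference of Ythdf1 enrichment, retina minus cortex (log2, horizontal), for each gene of 18 groups, with the number of genes in brackets, group medians as bars and the median of all 10956 genes dashed. Groups of short abundant RNAs lie at the left, with medians down to −5.66, and adhesion, tethering and matrix groups lie right of the dashed line at 0.11.

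Other falls came from outside these families. Nnat, an imprinted gene of the developing brain that lies inside Blcap, had 40.1 and 57.9 CPM in the retina IPs against 49.6 and 50.5 CPM in the retina inputs, and 129 and 247 CPM in the cortex IPs against 6.33 CPM in the cortex input. The retina values overlapped and the cortex values did not, and the difference was −4.92 ± 0.69 (SE, adjusted p = 0.00169). Igf2, an imprinted growth factor that overlaps Igf2os, had 5.44 and 6.26 CPM in the retina IPs against 45.0 and 55.6 CPM in the retina inputs, and 294 and 434 CPM in the cortex IPs against 254 CPM in the cortex input (difference −3.62 ± 0.60, SE, adjusted p = 0.00441). The depletion was on the retina side. Igf2 belongs to a list of 15 meningeal and mesenchymal markers whose summed level was 741 and 750 ppm in the retina IPs against 718 and 638 in the retina inputs, and 4532 and 5853 in the cortex IPs against 3620 in the cortex input; its part in the result was not tested. Tmsb10, a small actin-binding protein, had 33.5 and 25.9 CPM in the retina IPs against 1568 and 711 CPM in the retina inputs, and 88.9 and 178 CPM in the cortex IPs against 267 CPM in the cortex input (difference −4.26, adjusted p = 0.00741). Its relative Tmsb4x fell by 3.85, and Dynlrb1, a dynein light chain, by 3.72.

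Long noncoding RNAs gave 2 falls among 19, with a median of −1.47 that is above 0 with library totals or limma on FPKM. The value of Kcnq1ot1, like that of Cnot4, changes sign with limma on FPKM. Kcnq1ot1, the imprinted antisense transcript of the Kcnq1 locus, had 1.21 and 0.906 CPM in the retina IPs against 2.36 and 6.44 CPM in the retina inputs, and 38 and 40.2 CPM in the cortex IPs against 18.5 CPM in the cortex input, with a difference of −3.12 ± 0.71 (SE, adjusted p = 0.0255). Miat, a nuclear transcript of neural progenitors, fell by 2.46. Cnot4, a ubiquitin ligase of the CCR4-NOT deadenylase, had 1.10 and 1.68 CPM in the retina IPs against 8.19 and 12.5 CPM in the retina inputs, and 11.3 and 12 CPM in the cortex IPs against 15.5 CPM in the cortex input. It was the 1 call among 43 genes of mRNA decay, and the median of that list was 0.25.

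The m6A machinery itself was not called. Ythdf1 mRNA had 23.9 and 25.9 CPM in the retina Ythdf1 IPs against 14 and 11.5 CPM in the retina inputs, and 17.1 and 13.3 CPM in the cortex Ythdf1 IPs against 12.6 CPM in the cortex input, a difference of 0.69 ± 0.47 (SE, adjusted p = 0.446). Ythdf2 differed by 1.23 ± 0.66 (SE, adjusted p = 0.324) and Ythdf3 by −0.42 ± 0.78 (SE, adjusted p = 0.860). Of 13 m6A writers and erasers and 12 other m6A-linked RNA-binding proteins none was called by edgeR, with 2 and 1 at an unadjusted p under 0.05 and medians of 0.19 and −0.49. Over all 10956 genes 3052 passed that unadjusted threshold. The median of the writers and erasers is −0.33 with both cortex inputs and −1.50 with cortex input replicate 1 in place of replicate 2, and that of the other proteins is above 0 with library totals or with limma on FPKM. These intervals are wide and do not show that the genes act alike in both tissues.

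Markers of cell types were seldom called, but so were genes in general. Of all 10956 genes 5.93% were called and 3052 passed an unadjusted p under 0.05. The counts in these short lists do not set the markers apart. Of 14 retinal progenitor, 11 ganglion cell, 16 amacrine and horizontal cell and 3 photoreceptor precursor markers that met the count rule none was called, and neither was any of 12 markers of intermediate progenitors and cortical neurons; 4, 3, 2, 0 and 1 of these passed an unadjusted p under 0.05. Among 15 radial glial markers Tnc rose. Of 15 endothelial markers 2 met the rule, Kdr, the main receptor for vascular endothelial growth factor, which rose by 2.65, and Cldn5 at 2.10, which was not called (adjusted p = 0.131). Kdr made up most of the summed endothelial level in the retina, at 1178 of 1267 and 1214 of 1291 ppm in the retina IPs and 244 of 286 and 248 of 273 ppm in the retina inputs. The other 14 markers together held 88.2 and 77.2 ppm in the retina IPs against 42.6 and 24.7 ppm in the retina inputs, and 177 and 192 ppm in the cortex IPs against 212 ppm in the cortex input. Their part in the value of Kdr was not tested. Erythroid markers held 8.95 and 9.0 ppm in the retina IPs against 10.03 and 9.34 in the retina inputs, and 5207 and 12411 in the cortex IPs against 3276 in the cortex input; 0 of 14 met the rule, and their part in the results was not tested.

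Transcript length ran with the difference. Among 10950 genes with an annotated transcript, in 5 bins of 2190 genes each by the length of the longest transcript, the median difference was −0.99, −0.01, 0.29, 0.44 and 0.45 from the shortest to the longest. The shortest bin, up to 1914 bases, held 331 of the falls and 11 of the rises, and the longest bin, from 5494 bases, held 21 falls and 61 rises. The retina ratio changed more along this axis, with medians of −1.35 in the shortest and 0.65 in the longest bin, against −0.26 and 0.16 in the cortex. The input side ran the other way, with medians of 0.95 and −0.71 in the same bins. Within the 10092 protein-coding genes the bins gave −0.63, 0.10, 0.35, 0.47 and 0.46. Median lengths were 4358 bases for the 205 higher genes, 908 for the 445 lower genes and 3486 for all 10956.

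**Figure D5:**
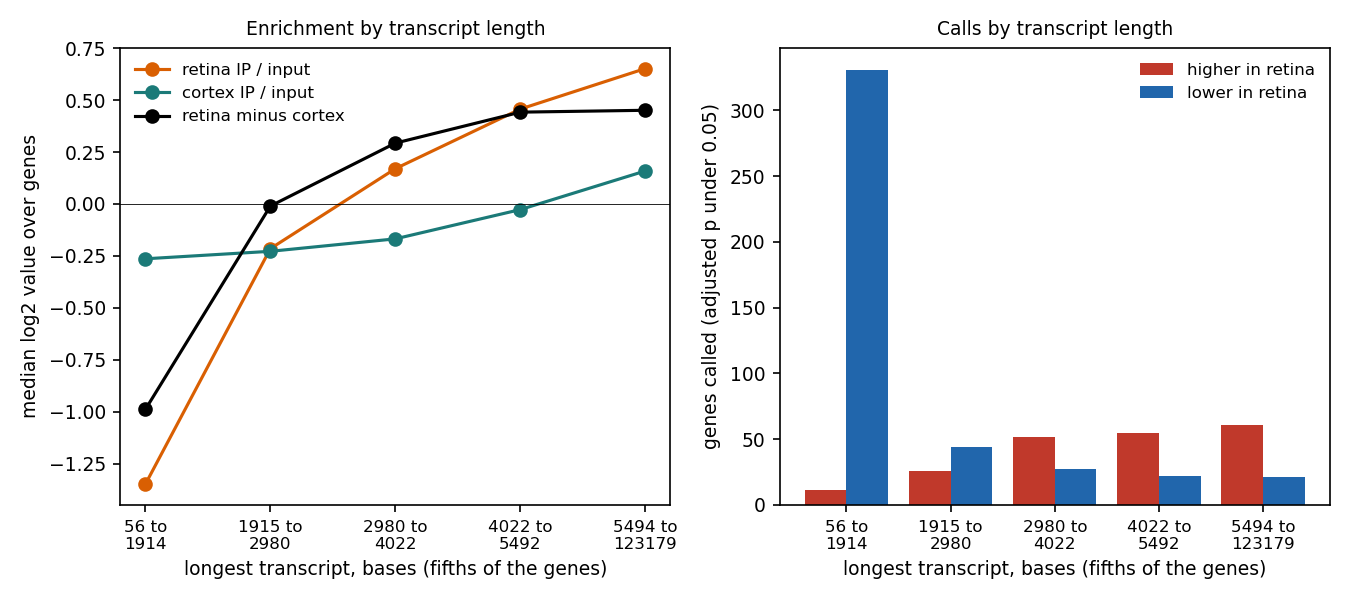
Left, median log2 ratio of Ythdf1 IP to input in the retina and cortex, and median difference, in 5 bins of 10950 genes by longest transcript (bases, 2190 genes each). Right, the number of genes called higher or lower in each bin; the shortest bin holds 331 of the 445 falls.

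GC content and GGACT density showed weaker relations. Spearman rho with the difference, over genes of the same libraries, was 0.330 for length, 0.130 for GC and 0.155 for GGACT per kb. By GC the median difference was −0.55 in the lowest of 5 bins, 0.43 in the middle one and 0.06 in the highest. By GGACT density it was −0.45 in the lowest bin and 0.20 in the highest. GGACT was present in 95.6% of the longest transcripts of the higher set, 54.6% of those of the lower set and 91.1% of those of all 10956 genes. Length bears on this share: in the shortest bin 40.8% of the 331 falls and 67.4% of all genes held the motif, while in the next bin it was 90.9% of the 44 falls and 92.0% of all genes.

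The Ythdf2 IPs give a second measure whose contrast leaves out the inputs. The contrast of Ythdf1 IP with Ythdf2 IP in the retina was set against the same contrast in the cortex, and its calls thus report a tissue difference of Ythdf1 relative to that of Ythdf2. Of the 10956 genes, 109 were higher and 377 lower, where 0.597% and 1.92% of all genes tested were called. The falls included 9 of 13 mitochondrial mRNAs, 15 of 79 ribosomal protein genes and 11 of 76 oxidative phosphorylation genes, 2 of 60 histone genes and none of 37 snRNAs. The snRNA median was 0.68 here, on the other side of 0 from its value over input. In the difference over input, Ythdf2 shares its input libraries with Ythdf1 and gave 84 higher and 87 lower genes (background 0.444% and 0.473%), with medians of −1.92 for mitochondrial mRNAs, −1.44 for ribosomal protein genes and −5.06 for snRNAs, beside −5.66, −2.52 and −4.94 for Ythdf1.

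Single genes separated the antibodies clearly. Igf2 had 5.44 and 6.26 CPM in the retina Ythdf1 IPs and 13.8 and 12.9 CPM in the retina Ythdf2 IPs, with 294 and 434 CPM in the cortex Ythdf1 IPs and 16.3 and 9.64 CPM in the cortex Ythdf2 IPs. The cortex Ythdf1 IPs stood far above the rest, and the antibody-by-tissue difference was −6.00 ± 0.54 (SE, adjusted p = 6.2e-05). Zfp407 had 11.9 and 12.9 CPM in the retina Ythdf1 IPs and 3.28 and 2.09 CPM in the retina Ythdf2 IPs, with 5.92 and 4.17 CPM in the cortex Ythdf1 IPs and 23.9 and 38.7 CPM in the cortex Ythdf2 IPs, so the antibodies changed places between the tissues (difference 4.83 ± 0.51, SE, adjusted p = 0.000453). Disp2, of the family that releases hedgehog ligands, was higher at 3.68 ± 0.62, and Atp6v1g1, a proton pump subunit, and Ndfip1, an adaptor of NEDD4 ubiquitin ligases, were lower at −4.59 ± 0.57 and −4.15 ± 0.51 (SE). Rnu3b4, a U3 small nucleolar RNA that overlaps other annotated genes, had 36 and 41 counts in the retina Ythdf1 IPs and 0 in both cortex Ythdf1 IPs and both retina Ythdf2 IPs, and no fold is given. This contrast also depended on single libraries. It gave 2 higher and 11 lower genes without retina Ythdf1 IP 1, 5 and 22 without retina Ythdf1 IP 2, 4 and 27 without cortex Ythdf1 IP 2, 5 and 56 without cortex Ythdf2 IP 2, 4 and 74 without retina Ythdf2 IP 1, and 3 and 44 without retina Ythdf2 IP 2. With library totals it gave 6 and 7. With both cortex inputs in the fit it gave 0 and 0, with 1197 at an unadjusted p under 0.05. There the inputs are not part of the contrast but enter the estimate of spread, the scaling and the filter, which left 18458 genes tested.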

How the data were processed

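RNA held by Ythdf1 or Ythdf2 and input RNA were sequenced in 12 libraries. The authors deposited gene counts, made with STAR 2.5 and HTSeq on GRCm38 per the submitters' processing notes; strand use in counting is not given in the sources used here. The authors also deposited FPKM values for the same libraries, used here only in an alternative.

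Counts of 11 libraries in 6 groups were fitted with edgeR 4.0.16 (quasi-likelihood test, TMM scaling, filterByExpr with a minimum count of 10 and total of 15, 5 residual degrees of freedom). Every adjusted p is a Benjamini-Hochberg value over all 20278 genes, and the SE is the log2 difference divided by the square root of F. Residual spread comes from groups of 2, and the 1 cortex input adds none. Totals of 19530226 to 40515980 counts set the counting precision. The exact interval given for Tbx3 covers counting error only, while each SE also takes in the spread between libraries that the fit estimates. R 4.3.3, limma 3.58.1, DESeq2 1.42.0, Python 3.11.15 and pandas 2.3.3 were used, and the fit was tested on simulated data. GENCODE M21 matched 52403 of 52550 IDs.

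The genes and lists were chosen with earlier results of these data known, and 9 of 41 lists were added after values were seen. Named genes were the 12 largest rises and 12 largest falls among protein-coding or long noncoding genes with an adjusted p under 0.05, a size of at least 1, a mean of at least 5 CPM and separated libraries, with up to 2 per list and direction and 3 per direction for the antibody contrast. Other genes named in a list's count were chosen after their values were seen. At the count limit, 554 genes with a lowest input count of 20 to 24 had a median difference of 0.04, and 644 genes at 15 to 19 had −0.10. Alternatives changed the inputs used, the libraries, scaling, filter, tool and transcript length. Some results are not reported here.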

Additional observations from a re-analysis of the deposited data

Results flagged for a closer look

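For 75 named genes the test of the difference between the tissues itself passed an adjusted p under 0.05 (edgeR). The spread of the cortex input was not measured, since a single library stood for it, and was assumed to be like that of the other groups. With both cortex inputs in the fit, 0 of these genes kept the call. The values are log2 differences, retina minus cortex. The higher ones were Prdm13 7.32, Rnu3b4 6.00, Zfp407 5.03, Ngfr 3.97, Cog7 3.54, Tbx3 3.40, Ttc30b 3.39, Tril 3.32, Tmem132d 3.31, Mmp14 3.30, Lifr 3.25, Apba2 3.21, Egflam 3.12, Edem3 3.02, Itgb5 2.99, Tnc 2.98, Smo 2.74, Kdr 2.65, Sdha 2.52, Mars 2.5, Ntn4 2.46, Prpf6 2.46, Exoc3 2.46, Ipo5 2.45, Hsp90ab1 2.42, Prpf8 2.40, Igf2r 2.39, Ift172 2.38, Xpo5 2.30, Insr 2.28, Nrcam 2.14, Psmd1 2.12, Mcm6 2.11, Pcdh18 2.08, Eif3c 1.94, Mcm3 1.92, Syt11 1.91, Psmd2 1.83, Sv2b 1.82, Iars 1.82 and Plxnb2 1.80. The fitted values of Prdm13 and Rnu3b4 are no bounds, since both cortex IPs had 0 counts: against 3 counts per library the difference was at least 4.01-fold for Prdm13 and at least 1.64-fold for Rnu3b4.

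Among mRNAs of the mitochondrial genome the values were mt-Nd2 −5.15, mt-Co1 −5.18, mt-Nd4l −5.23, mt-Cytb −5.44, mt-Nd1 −5.66, mt-Nd5 −5.76, mt-Co2 −6.07, mt-Atp8 −6.16, mt-Nd3 −6.19 and mt-Co3 −6.79. Among histone genes, snRNAs and small nucleolar RNAs they were Snord15b −5.35, Hist1h4j −5.37, Hist1h4f −5.51, Snord118 −5.60, Rnu1b2 −5.68 and Rnu1b1 −5.68. The other lower genes were Vamp2 −2.05, Miat −2.46, Cnot4 −2.48, Ndfip1 −2.53, Eif5a −2.58, Ube2c −2.95, Mrps21 −3.00, Kcnq1ot1 −3.12, Snrpd2 −3.18, Ndufb11 −3.34, Snrpg −3.61, Igf2 −3.62, Dynlrb1 −3.72, Mrpl42 −3.83, Atp5l −4.04, Tmsb10 −4.26, Rplp1 −4.90 and Nnat −4.93. The genes were named because they were called, so their number says nothing further.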

How the results depend on the processing

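Of 205 higher and 445 lower genes, the fit with both cortex inputs gave 0 and 0, and cortex input replicate 1 in place of replicate 2 gave 1168 and 3005. The 7 libraries of the contrast alone gave 45 and 283, DESeq2 437 and 879, library totals 1700 and 92, TMM from nuclear protein-coding genes 102 and 496, no filter on low counts 501 and 728, limma on FPKM 2713 and 140, and at least 100 counts in each input 119 and 368. All 205 and 445 calls were shared with DESeq2. Leaving out 1 library gave 16 to 733 higher and 138 to 830 lower genes.

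For the antibody-by-tissue difference, with 109 higher and 377 lower genes, both cortex inputs gave 0 and 0, the 8 IP libraries alone 489 and 890, DESeq2 399 and 802, library totals 6 and 7, no filter 395 and 633, limma on FPKM 1 and 2, and at least 100 counts 46 and 322. Leaving out 1 library gave 2 to 525 higher and 11 to 894 lower genes.

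Replicate numbers did not pair the libraries: deviations of same-numbered libraries correlated between −0.198 and 0.137 over 10 pairs of groups. With a replicate block the counts were 145 and 410, and 78 and 316 for the antibody contrast.

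Of 1539 values of named genes under the alternatives, 1141 kept direction and call, 363 lost the call, 12 gained it and 23 changed sign. With cortex input replicate 1 in place of replicate 2 the signs changed for Ngfr (−6.60), Mmp14 (−1.53), Smo (−1.25), Ntn4 (−0.35), Prpf6 (−0.56), Ipo5 (−0.43), Hsp90ab1 (−1.09), Igf2r (−0.089), Xpo5 (−0.23), Psmd1 (−0.28), Mcm6 (−3.65), Pcdh18 (−0.31), Eif3c (−0.84), Mcm3 (−3.04), Iars (−1.20), Ythdf2 (−1.07), Ythdf1 (−0.46) and Vamp2 (0.67). Ythdf3 changed sign with library totals (0.88), limma (0.82) and without retina input 2 (0.94; range leaving out 1 library −1.11 to 0.94), and Cnot4 (0.57) and Kcnq1ot1 (0.058) did with limma. In cortex input replicate 1 Ngfr had 0 counts, Mcm6 had 6 and Mcm3 had 13. The fitted −6.60 of Ngfr thus depends on the prior count and is no measured size. The cause of the sign changes was not tested. With the median of transcripts in place of the longest, the median difference between the outer length bins was 1.02 in place of 1.44.

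Depth and the single cortex input limit genes with few cortex counts, such as Prdm13, Tbx3 and Egflam.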
